A study of Mus musculus with 6 samples.

Results

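The genes described here are the sensors of the unfolded protein response and a set of endoplasmic reticulum (ER) folding and quality-control genes, namely Atf6, Ern1, Eif2ak3, Xbp1, Herpud1, Pdia4, Pdia6, Calr, Sdf2l1 and Ppib. They were chosen by name and function, and all 10 were found among the 52636 genes of the mouse table. The RNA came from the vestibular epithelium of male 129S1/SvImJ mice aged 2 to 4 months, with the 2 utricles and 6 cristae of 1 animal pooled into each library. Mice of the Control group (n = 3) drank plain water, and mice of the IDPN group (n = 3) drank 30 mM 3,3'-iminodipropionitrile, a nitrile that is toxic to vestibular hair cells, for 8 weeks. No other strain, sex, genotype or agent entered the comparison, and the labels give the same batch for all 6 libraries. The animal codes of the 3 Control mice share a stem that no IDPN mouse has. What the stem marks is not given, and it cannot be told apart from the treatment.

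Proteins that enter the secretory pathway fold in the ER with the help of chaperones, oxidoreductases and prolyl isomerases. When unfolded protein accumulates, 3 membrane sensors respond. IRE1-alpha (Ern1) splices the Xbp1 mRNA so that it encodes an active transcription factor, PERK (Eif2ak3) phosphorylates the translation factor eIF2-alpha, and ATF6 is cut in the Golgi to release a transcription factor. The 2 factors XBP1 and ATF6 raise the transcription of chaperones, disulfide isomerases and components of ER-associated degradation, in part through the ER stress response element (ERSE), whereas the PERK arm acts through ATF4 and CHOP. Splicing of Xbp1, cleavage of ATF6 and phosphorylation of the kinases are not visible in counts per gene, so the values below give mRNA amounts and not the activity of the response.

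Because the ERSE ties the folding genes to the sensors, the promoter stretches that hold one are shown first. Windows from 250 bases before to 50 bases after the annotated start (RefSeq, GRCm38.p6) were found for 9 of the 10 genes, all but Atf6, and were searched on both strands. The ERSE (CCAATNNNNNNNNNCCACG) was present in the windows of Calr and Pdia6, and in 0.119% of the 32851 windows of the genome. The related ERSE-II (ATTGGNCCACG) was present in the window of Herpud1, and in 0.0365% of all windows. The window of Hspa5, which encodes the major ER chaperone BiP and is the textbook target of this element, is given for comparison. Each stretch is written 5′ to 3′ on the strand of its gene, with the fixed letters of the motif in capitals and 20 flanking bases on each side.
Calr: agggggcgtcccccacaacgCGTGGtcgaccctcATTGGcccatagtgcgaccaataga
Pdia6: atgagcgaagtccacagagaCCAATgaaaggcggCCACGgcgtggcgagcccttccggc
Herpud1: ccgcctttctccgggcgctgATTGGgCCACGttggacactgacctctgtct
Hspa5: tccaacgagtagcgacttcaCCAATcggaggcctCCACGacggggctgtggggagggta
The Calr stretch lies at chr8:84847055-84847113, with the gene on the minus strand, the motif in antisense and its near end 144 bases before the start. The Pdia6 stretch lies at chr12:17266471-17266529 on the plus strand and the Herpud1 stretch at chr8:94386357-94386407 on the plus strand, with the motifs ending 80 and 42 bases before the start. The Hspa5 stretch lies at chr2:34772005-34772063 on the plus strand, with the motif ending 47 bases before the start. When 1 of the 10 fixed letters of the ERSE was allowed to differ, Pdia4 and Herpud1 also held a match, against 1.5% of all windows. Of the shorter motifs, CCAAT occurred in 7 of the 9 windows and in 37.4% of all, and CCACG in 7 of 9 and in 32.8% of all. The windows of Xbp1, Ern1, Eif2ak3, Sdf2l1 and Ppib held neither full motif in these letters.

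The libraries held 40474847 to 43566332 counts each. In a principal component analysis of the 500 most variable genes, the first component took 61.3% of the variance and ordered the Control libraries (-10.3 to -7.38) before the IDPN libraries (-0.13 to 21.7), with IDPN 2 far from the rest. The summed level of 11 immediate early genes was 319095 normalized counts in IDPN 2 and 3230 to 7504 in the other 5 libraries. Estimates without IDPN 2 are therefore given for the genes it set apart and for the gene lists. Of 12 hair cell markers, 7 were downregulated by DESeq2 and 6 by edgeR, and the sum of the 11 other than Spp1, which alone held 96.8% of the normalized counts of the list and was not called, was 28220 to 31847 in Control and 20299 to 20697 in IDPN. Of 10 stroma markers, Coch alone held 98.2% of the normalized counts, and the other 9 summed to 22140 to 40980 in Control and 37797 to 40363 in IDPN, most of it Dcn. The 8 markers of plasma cells, which express Xbp1 strongly, summed to 370 to 486 normalized counts in Control and 396 to 512 in IDPN. Cd79a (111 to 226) and Sdc1 (148 to 267) made up most of these sums. Pou2af1 was between 41.6 and 62.1 and Jchain between 6.9 and 41, and Tnfrsf17 (0 to 10.4) and Mzb1 (0 to 9.1) were at 0 in some libraries. Prdm1 (0 to 9.8 in Control, 13.2 to 23.3 in IDPN) and Irf4 (0 to 0.89 in Control, 1.9 to 9.0 in IDPN) were higher in IDPN, at low counts. In such bulk counts, fewer cells of a type and less RNA per cell cannot be told apart. In mice of an earlier study given this exposure, the authors found hair bundle numbers in the central utricle unchanged, with extruding cells present. The part of cell number in these marker values was not tested.

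None of the 10 genes was up- or downregulated in the IDPN group, using DESeq2 with an adjusted p-value (Padj) under 0.05 and a fold change above 1.5 on counts scaled by median-of-ratios size factors. Of all 17680 genes tested, 5.74% passed the same rule (410 higher and 604 lower, or 2.32% and 3.42%, which became 607 higher and 214 lower when libraries were scaled by total count). No gene of the 10 reached an unadjusted p under 0.05 either, compared with 16.9% of all genes tested. The edgeR quasi-likelihood test called 0 of the 10, with 0 at its unadjusted p under 0.05, and 3.21% of the genes it tested. The log2-Fold_Change estimates ran from -0.30 to 0.56. The grouping by role given next was drawn from these same estimates and is a description, not a test. The 3 sensors, Xbp1 and Herpud1 had a higher mean in IDPN, and the 5 folding genes had a lower one, although Pdia4, Pdia6 and Calr turned to the higher side when libraries were scaled by total count. The median log2-Fold_Change of the 10 genes was 0.10, beside 0.02 for all genes tested, and -0.01 without IDPN 2, beside 0.01. The p-values measure the spread between 3 animals per group.

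**Figure D1:**
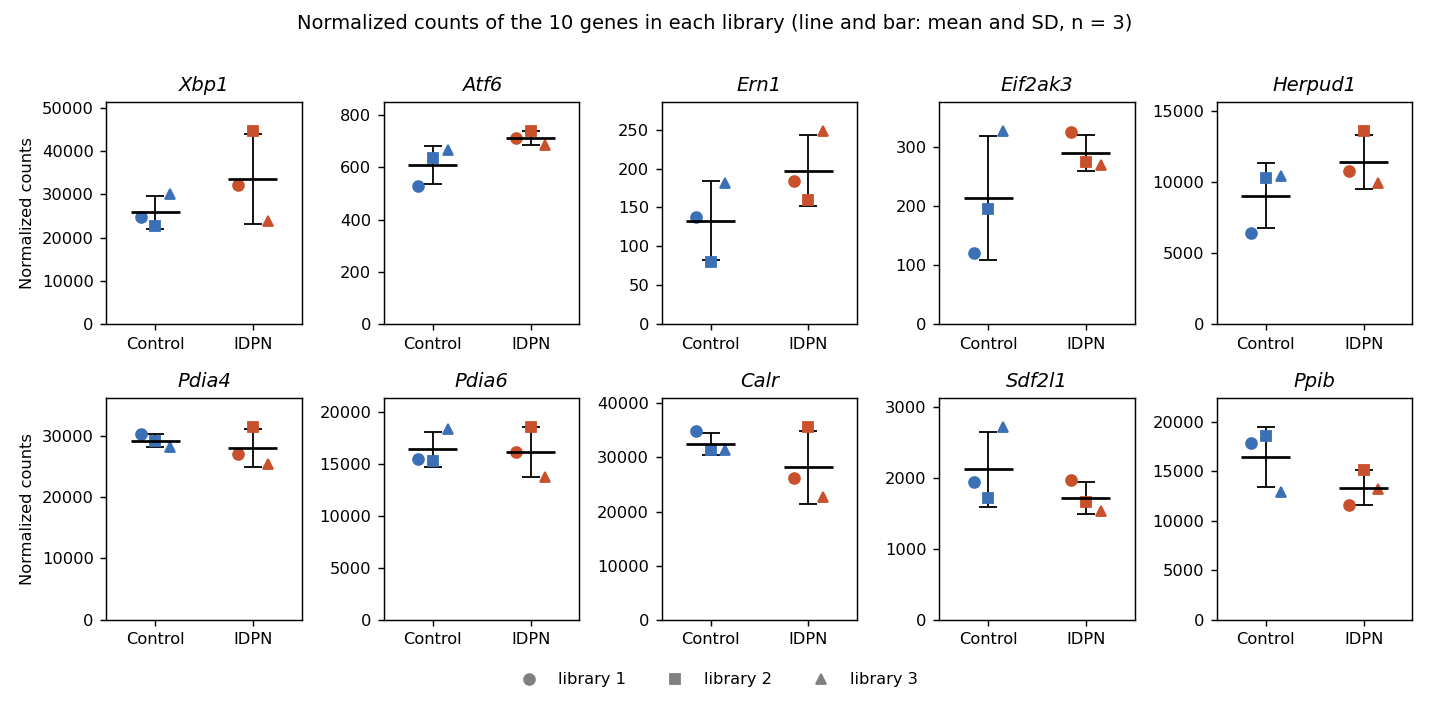
Normalized counts (vertical axis, linear from 0) of each of the 10 genes in the 3 Control (blue) and 3 IDPN (red) libraries; circles, squares and triangles are libraries 1, 2 and 3 of a group, and the line and bar are the mean and SD. Only in Atf6 do all 3 IDPN libraries (687 to 739) lie above all 3 Control libraries (529 to 667), and in Xbp1 the IDPN 2 library (44665) stands above the other 5 (22686 to 32124).

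The sensors were the scarcest of the 10 genes. Atf6 (chr1:170704674-170867771, minus strand, GRCm38) gave 529, 637 and 667 normalized counts in the Control libraries and 714, 739 and 687 in the IDPN libraries. All IDPN values were above all Control values, and the gap between the nearest libraries of the groups, 667 and 687, was small beside the Control spread. The means were 611 ± 72.8 and 713 ± 26.1 (SD, n = 3), with a log2-Fold_Change of 0.22 ± 0.18 (SE) and Padj = 0.599 by DESeq2. Non-overlap of the groups was seen in 1 of the 10 genes (0 with total-count scaling) and in 22.5% of all genes tested. The 95% interval of the Atf6 change, -0.13 to 0.57, stayed just within a 1.5-fold change in either direction, with all 6 libraries and under this scaling. The interval stayed within that range for 4 of the 10 genes and for 29.2% of all genes tested.

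Ern1, the gene of IRE1-alpha (chr11:106394650-106487852, minus strand), gave 138, 79.6 and 181 normalized counts in Control and 184, 160 and 248 in IDPN. IDPN 3 was the highest library and Control 2 the lowest, and the groups overlapped between Control 3 and IDPN 2. The log2-Fold_Change, 0.56 ± 0.33 (SE), was the largest of the 10 genes, with a 95% interval of -0.08 to 1.20 and Padj = 0.391. Eif2ak3, the gene of PERK (chr6:70844515-70905245, plus strand), gave 120, 195 and 327 in Control and 326, 275 and 271 in IDPN. The Control libraries held both the lowest and the highest of the 6 values. The log2-Fold_Change was 0.44 ± 0.32 (SE), with an interval of -0.18 to 1.06 and Padj = 0.538. Eif2ak3 was upregulated only in the fit without Control 3 (log2-Fold_Change 0.88, Padj = 0.0295), and its estimate was 0.15 without Control 1 (Padj = 0.932). For neither kinase did the interval exclude a 1.5-fold rise. Of the exon bases of Eif2ak3, 485 of 6026 are shared with Gm43292 on the opposite strand, and the library protocol does not keep the strand.

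Xbp1 (chr11:5520659-5525893, plus strand) stood far above the sensors in level. Its normalized counts were 24762, 22686 and 30158 in Control and 32124, 44665 and 23868 in IDPN. IDPN 2 was the highest library, while IDPN 3 was below Control 1 and Control 3, so the groups overlapped. The means were 25869 ± 3857 and 33552 ± 10472 (SD, n = 3), with a log2-Fold_Change of 0.38 ± 0.22 (SE), a 95% interval of -0.05 to 0.80 and Padj = 0.391. Without IDPN 2 the estimate was 0.11 (Padj = 0.889), and without IDPN 3 it was 0.57 (Padj = 0.127).

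Herpud1, an ER membrane protein that serves ER-associated degradation (chr8:94386438-94395377, plus strand), carries the ERSE-II shown above. Its normalized counts were 6447, 10300.3 and 10453 in Control and 10797, 13617 and 9969 in IDPN. Control 1 was the lowest library and IDPN 2 the highest, and IDPN 3 lay below Control 2 and Control 3. The log2-Fold_Change was 0.34 ± 0.21 (SE), with an interval of -0.07 to 0.75 and Padj = 0.432. The estimate was 0.20 without IDPN 2 and 0.14 without Control 1.

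The genes of the disulfide isomerases Pdia4 and Pdia6, which form and rearrange disulfide bonds, had nearly equal means in both groups. Pdia4 (chr6:47796141-47813430, minus strand) gave 30339, 29091 and 28113 normalized counts in Control and 26987, 31451 and 25402 in IDPN. IDPN 2 was the highest library and the other IDPN libraries the lowest, so the groups overlapped through IDPN 2. The log2-Fold_Change was -0.06 ± 0.15 (SE), with an interval of -0.35 to 0.23 and Padj = 0.903. Pdia6 (chr12:17266545-17284770, plus strand) gave 15529, 15362 and 18397 in Control and 16160.2, 18624 and 13745 in IDPN. The 3 IDPN values were above, below and among the Control values. The log2-Fold_Change was -0.02 ± 0.17 (SE), with an interval of -0.35 to 0.31 and Padj = 0.972. For both isomerases the interval stayed within a 1.5-fold change in either direction, under this scaling.

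Calr encodes calreticulin, a calcium-binding lectin chaperone of glycoproteins (chr8:84841850-84846934, minus strand). Its normalized counts were 34938, 31338 and 31309 in Control and 26276, 35694 and 22649 in IDPN. IDPN 1 and IDPN 3 were below every Control library and IDPN 2 above every one. The means were 32528 ± 2087 and 28206 ± 6734 (SD, n = 3), with a log2-Fold_Change of -0.21, an interval of -0.57 to 0.16 and Padj = 0.654. Without IDPN 2 the estimate was -0.41 (Padj = 0.132).

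Sdf2l1, a chaperone partner that works with BiP and its J-domain proteins (chr16:17130138-17132383, minus strand), gave 1937, 1713 and 2719 normalized counts in Control and 1966, 1663 and 1529 in IDPN. Control 3 was the highest library and the rest lay close together. Its log2-Fold_Change was -0.30 ± 0.20 (SE), with an interval of -0.70 to 0.09 and Padj = 0.484. Ppib, the prolyl isomerase cyclophilin B (chr9:66060222-66066623, plus strand), gave 17898, 18546 and 12967 in Control and 11634, 15176 and 13202 in IDPN. Control 3 was among the IDPN values, well below the other Control libraries. The log2-Fold_Change was -0.30 ± 0.18 (SE), with an interval of -0.66 to 0.05 and Padj = 0.416. The interval did not exclude a 1.5-fold fall. In DESeq2 fits with 1 library left out, the Ppib estimate was -0.45 without Control 3 (Padj = 0.0556) and -0.41 without IDPN 2 (Padj = 0.288). It was -0.21 without IDPN 1 (Padj = 0.762). Of the exon bases of Ppib, 825 of 3305 are shared with Snx22 on the opposite strand, so reads of the pair could not be kept apart by strand.

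**Figure D2:**
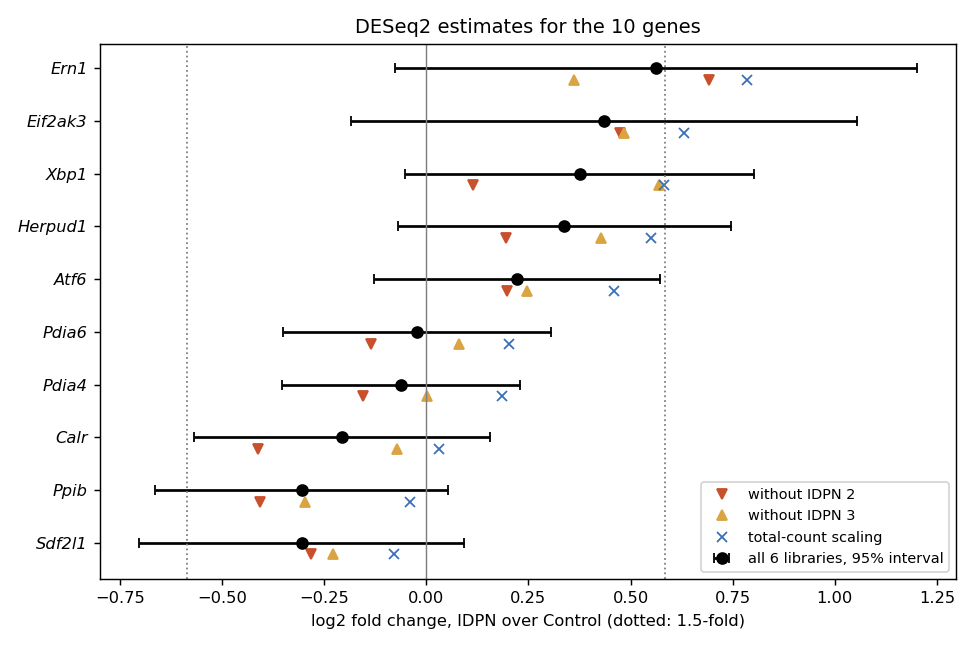
DESeq2 log2-Fold_Change of IDPN over Control (horizontal axis) for the 10 genes; black points and bars are the estimate from all 6 libraries and its 95% interval, triangles are fits without IDPN 2 or IDPN 3, crosses are total-count scaling, and dotted lines mark 1.5-fold. Every interval includes 0, and with total-count scaling all estimates move to the right, by 0.25 for the median gene, which puts Pdia4, Pdia6 and Calr above 0.

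Levels of different genes were compared as normalized counts per kilobase of the longest annotated transcript. On that scale Control means were 14894 for Calr, 12164 for Pdia4, 12151 ± 1811 (SD, n = 3) for Xbp1, 7554 for Pdia6, 4983 for Ppib, 4645 for Herpud1 and 1916 for Sdf2l1. The sensors were at 84.3 for Atf6, 47.5 for Eif2ak3 and 19.2 for Ern1. The level of Pdia4 and that of Xbp1 differed by less than the spread of Xbp1 between Control libraries. Xbp1 mRNA thus stood at the level of the folding enzymes, and the mRNAs of the sensors were lower than every other member. The place of Ppib is uncertain, since its longest transcript, 3305 bases, includes the stretch shared with Snx22, and its transcripts average 2098.5 bases.

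A plot of each library against the Control mean shows how the genes varied within the groups. IDPN 2 held the highest value of the 6 libraries in 6 of the 10 genes and the lowest in 0, whereas across all genes tested it was highest in 19.8% and lowest in 18.2%. IDPN 3 held the lowest value in 4 of the 10, beside 14.2% of all genes tested. For the folding genes the 2 libraries diverged. The summed normalized counts of the 5 folding genes were 100641, 96050 and 93505 in Control and 83022, 102608 and 76525 in IDPN. IDPN 2 was the highest of the 6 sums and IDPN 1 and IDPN 3 were the lowest. IDPN 2 was also the library with the high immediate early genes, and the part of that difference in these values was not tested.

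**Figure D3:**
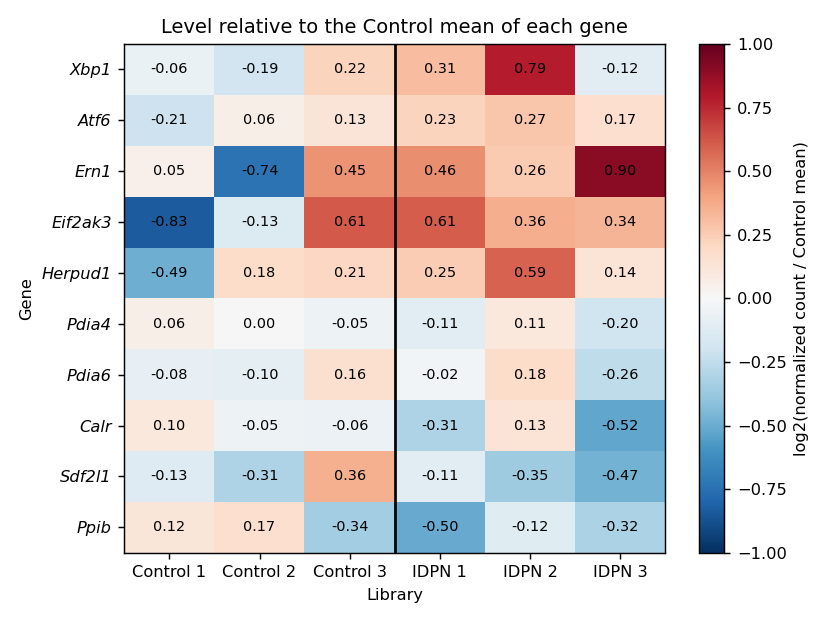
Log2 of each library's normalized count over the Control mean of the gene, for the 10 genes (rows) in the 3 Control and 3 IDPN libraries (columns); red is above and blue below the Control mean. Xbp1 is at 0.79 and Herpud1 at 0.59 in IDPN 2, Ern1 at 0.90 in IDPN 3 and Eif2ak3 at -0.83 in Control 1, while Pdia4 stays between -0.20 and 0.11 in all 6.

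The separation by role was also described on a scale that does not depend on library scaling, the mean log2 normalized count of the 3 sensors and Xbp1 minus that of the 5 folding genes. This difference, chosen after the values were seen, was -4.37, -4.29 and -3.76 in Control and -3.49, -3.67 and -3.42 in IDPN. Every IDPN library was above every Control library, with Control 3 nearest to IDPN 2. The means differed by 0.62, and no test is given because the grouping was drawn from the same values. The level of a gene also moved with its estimate across the whole table. Genes with a mean of at least 10000 normalized counts, which hold 6 of the 10, had a median log2-Fold_Change of -0.25 (n = 457), and those from 100 to 1000, which hold the 3 sensors, had 0.05 (n = 7264). Among the 457 abundant genes Xbp1 ranked 18 from the highest log2-Fold_Change and Herpud1 26, whereas Pdia6 ranked 103, Pdia4 120, Calr 206 and Ppib 266. Among the 7264 genes of the lower class Ern1 ranked 555, Eif2ak3 917 and Atf6 2095. The quartiles of the abundant class were -0.43 and -0.05, so Xbp1 and Herpud1 were above its upper quartile, and Calr and Ppib were near its middle. Sdf2l1, the only one of the 10 with a mean between 1000 and 10000, ranked 3354 of 4015, in a class with a median of -0.05.

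Beyond the 10 genes, 117 other genes of 9 ER lists were tested. The 9 lists with the 10 genes included held 127 tested genes, of which 1 was upregulated and 1 downregulated (1.57%, beside 5.74% of all genes tested). edgeR called 0 of the 127, with 12 at its unadjusted p under 0.05, and 14 were at an unadjusted p under 0.05 in DESeq2 (11.0%, beside 16.9% of all). The groups did not overlap in 25 of the 127 genes (19.7%, beside 22.5% of all). The median log2-Fold_Change of the 127 genes was 0.06, and 75 of them were above the median of all genes tested, a count that was also 75 with total-count scaling. Without IDPN 2 the median of the 127 was -0.01, beside 0.01 for all genes tested, 62 in place of 78 had a higher mean in IDPN, and 0 were called higher and 1 lower.

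The upregulated gene was Edem1, a mannosidase-like factor that draws misfolded glycoproteins into ER-associated degradation. Its normalized counts were 177, 212 and 254 in Control and 310, 387 and 362 in IDPN. The groups did not overlap. The log2-Fold_Change was 0.71 ± 0.23 (SE), with Padj = 0.0349 by DESeq2 and 0.0849 by edgeR. The call was lost in 5 of the 6 fits that left out 1 library, all but that without Control 3, with an estimate of 0.59 to 0.86 in all 6 (Padj = 0.175 without IDPN 2).

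The downregulated gene was Prdx4, the ER peroxiredoxin that passes oxidising power from hydrogen peroxide to disulfide isomerases. Its normalized counts were 4447, 4531 and 3465 in Control and 2348, 2951 and 2791 in IDPN. All IDPN libraries were below all Control libraries. The log2-Fold_Change was -0.62 ± 0.17 (SE), with Padj = 0.00934 by DESeq2 and 0.0685 by edgeR. Without IDPN 2 it remained called (Padj = 0.00936). The call was lost without Control 1, Control 2 or IDPN 1, where Padj reached 0.104, and with total-count scaling (log2-Fold_Change -0.36, Padj = 0.270). Just outside the threshold was Txndc11, a thioredoxin-domain protein of the ER, which is named after its values were seen. It gave 443, 824 and 1198 in Control and 1389, 1792 and 1232 in IDPN, with a log2-Fold_Change of 0.84 ± 0.28 (SE) and Padj = 0.0506 by DESeq2 and 0.187 by edgeR. Its estimate ran from 0.54 without Control 1 to 1.22 without Control 3, where it was called.

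**Figure D4:**
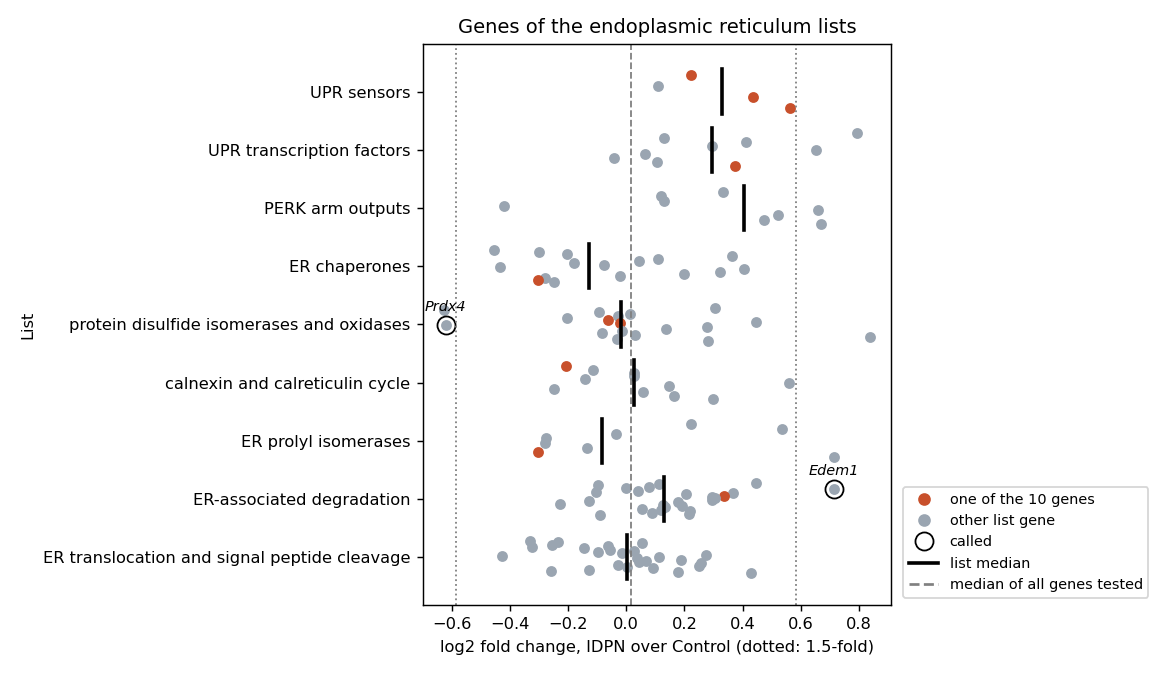
DESeq2 log2-Fold_Change of IDPN over Control (horizontal axis) for the tested genes of the 9 ER lists (rows); red points are members of the set of 10, grey points other genes, ringed points the called genes Edem1 (0.71) and Prdx4 (-0.62), bars the list medians, the dashed line the median of all genes tested and dotted lines 1.5-fold. Medians run from -0.13 for ER chaperones to 0.40 for the list labelled PERK arm outputs, which also holds genes that act within the arm. The median of that list is 0.04 without IDPN 2.

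Among the sensors, Atf6b, the homologue of Atf6, had a log2-Fold_Change of 0.11 (Padj = 0.837), and Ern2, the form of IRE1 found in mucous epithelia, was at 0 counts in every library. With Atf6, Ern1 and Eif2ak3 the list had a median of 0.33 (0.34 without IDPN 2), and 0 of 4 passed. The list of transcription factors had a median of 0.30 with 0 of 9 called, and of 0.06 without IDPN 2. Its usual stress readouts rested on 1 library. Atf4, the effector of the PERK arm, gave 2114, 2146 and 1989 in Control and 1808, 6986 and 2049 in IDPN, and Ddit3, the gene of CHOP, gave 431, 481 and 725 in Control and 550, 1432 and 593 in IDPN. In both, IDPN 2 was far above every other library and the other IDPN values were within or near the Control range. The log2-Fold_Change of Atf4 was 0.80 (Padj = 0.585) and -0.11 without IDPN 2, and that of Ddit3 was 0.65 (Padj = 0.274) and 0.06 without IDPN 2. Atf3, an inducible factor, was at 3420 in IDPN 2 and at 38.1 to 143 in the other 5 libraries, and the Cook filter of DESeq2 left it without a p-value. Creb3l2, an ER-bound factor of the same class as Atf6, had a log2-Fold_Change of 0.30 (Padj = 0.476).

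The list labelled PERK arm outputs had a median of 0.40, with 0 of 8 called and 7 of 8 above 0. It also holds genes that act within the arm, such as Eif2s1 for eIF2-alpha (0.13, Padj = 0.784). Its median therefore does not stand for the targets of ATF4 and CHOP alone. Without IDPN 2 the median was 0.04, below that of the sensors, and 6 of 8 were above 0. Ppp1r15a, the gene of GADD34, which reverses eIF2-alpha phosphorylation, gave 2152, 1955 and 1794 in Control and 1807, 5641 and 1864 in IDPN. The estimate was 0.66 on the log2 scale (Padj = 0.621) and -0.10 without IDPN 2. Dnajc3, a co-chaperone of BiP, was at 0.12 (Padj = 0.800). For Trib3, every IDPN library (167 to 226) exceeded every Control library (74.7 to 152). The Trib3 estimate was 0.67 (Padj = 0.226) and 0.76 without IDPN 2 (Padj = 0.288). Nck1 went the other way, from 1791 to 1900 among Control libraries down to 1232 to 1611 among IDPN libraries. The Nck1 estimate was -0.42 (Padj = 0.122) and -0.34 without IDPN 2 (Padj = 0.352). Neither gene was called, and neither estimate rested on IDPN 2 alone. IDPN 2 was the highest library in 6 of the 8 genes of this list and in 6 of the 9 transcription factors, Xbp1 included.

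The ER chaperones had a median of -0.13 (-0.16 without IDPN 2), with 0 of 16 called. Hspa5, the gene of BiP, gave 54907, 52814 and 95374 normalized counts in Control and 79319, 117614 and 57050.5 in IDPN. Control 3 and IDPN 2 were the high libraries of their groups, and the groups overlapped over most of their range. Its log2-Fold_Change of 0.32 ± 0.26 (SE) had Padj = 0.611 and was 0.01 without IDPN 2. Hsp90b1, the gene of GRP94, gave 94214, 73110 and 78078 in Control and 62539, 71030 and 48220 in IDPN. All its IDPN values were below all Control values, with a log2-Fold_Change of -0.43 ± 0.18 (SE) and Padj = 0.159. Dnajb9, a J-domain co-chaperone that is a usual readout of spliced XBP1, was at 0.04 (Padj = 0.939).

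The other folding lists lay near the median gene. Disulfide isomerases and oxidases had a median of -0.02 with 1 of 18 called, which was Prdx4. Their most abundant gene, Pdia3, was at -0.20 (Padj = 0.615). The calnexin and calreticulin cycle had a median of 0.03 with 0 of 11 called, and Canx, the membrane-bound relative of calreticulin, was at -0.12 (Padj = 0.788). The ER prolyl isomerases had a median of -0.08 with 0 of 8 called, and Fkbp9, the most abundant of them in normalized counts, was at -0.13 (Padj = 0.771). ER-associated degradation had a median of 0.13 with 1 of 26 called, Edem1, and 21 of its 26 genes had a higher mean in IDPN, beside 51.7% of all genes tested. Without IDPN 2 the median was 0.06, with 17 of 26 higher and 0 called. The translocation list had a median of 0.00 with 0 of 27 called. Without IDPN 2 the medians of the disulfide isomerase, calnexin, prolyl isomerase and translocation lists were -0.04, 0.00, -0.13 and -0.05. Its most abundant genes Rpn2 and Rpn1, of the oligosaccharyltransferase, were at -0.25 (Padj = 0.498) and 0.06 (Padj = 0.921).

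Likeness in pattern to Xbp1 was measured as the root mean square difference in centred log2(normalized count + 1) over the 6 libraries, among 11769 genes with a mean of at least 100. The nearest genes were Bicdl2 (0.067), Fdxacb1 (0.069) and Ppt2 (0.082), with means of 141 to 150 normalized counts in Control. Of the 121 pathway genes compared, 5 were among the nearest 1% of genes (4.13%). These were Hyou1, Creld2, Ppp1r15b, Hspa5 and Dnajb11, of which Hyou1, an ER chaperone that acts as exchange factor for BiP, was the nearest at rank 11. Hyou1 gave 2363, 2225 and 2866 normalized counts in Control and 2897, 3512 and 2145 in IDPN, the same order of high and low IDPN libraries as Xbp1. Of the other 9 of the 10 genes, Pdia6 was the nearest to Xbp1, at rank 520. The 6 points share their libraries and depth, and the measure is a description.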

How the data were processed

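Poly(A)-primed SMART-seq2 libraries, which do not keep the strand, were made from 6 to 11 ng of total RNA of each of 3 Control and 3 IDPN mice. The authors aligned reads with STAR 2.5.3a to GRCm38 with GENCODE M15 genes and quantified them with RSEM 2.3.0. The deposited values are expected counts per gene, given as whole numbers, for 52636 genes. Their totals were 40474847 to 43566332 per library, and the scarcest member, Ern1, had 79.6 to 248 normalized counts.

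All 25689 genes with at least 1 count were fitted with DESeq2 1.42.0 (R 4.3.3; Wald test, median-of-ratios size factors, independent filtering at 0.05, Cook filter, which left 40 genes without a p-value). Genes were called at a Benjamini-Hochberg Padj under 0.05 over all genes and a fold change above 1.5. The alternatives were edgeR 4.0.16 (quasi-likelihood test, TMM, with and without a low-count filter), TMM and total-count scaling, a minimum of 10 counts in 3 libraries, no independent or Cook filter, a test against a 1.5-fold change, and leaving out each library. Libraries were numbered in order of deposition within a group. Coordinates and transcript lengths came from GENCODE M21 on GRCm38, which matched 99.6% of the gene IDs, and promoter windows from RefSeq. Outside the 10 genes, those named were the called genes of each list or otherwise its 2 most abundant, usual readouts of the sensors (Hspa5, Hsp90b1, Atf4, Ddit3, Atf3, Dnajb9 and Atf6b), and the 3 genes nearest to Xbp1. Pdia3, Ern2, Txndc11, Trib3, Nck1, Eif2s1, Hyou1, Creld2, Ppp1r15b and Dnajb11 are named outside this rule, after their values were seen. The 10 genes and all lists were chosen with earlier results of these data known. The comparison with abundance classes and the count of genes with a promoter motif were added after the data were seen, as were the list medians without IDPN 2 and the marker sums without their most abundant gene.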

Additional observations from a re-analysis of the deposited data

How the results depend on the processing

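No paired analysis was possible because the labels give no replicate numbers that the groups share. None of the 8 other settings called any of the 10 genes, and leaving out 1 library called 0 to 1 of them (1 without Control 3, Eif2ak3). With total-count scaling, which moved the median gene by 0.25, Pdia4 (0.18), Pdia6 (0.20) and Calr (0.031) turned higher in IDPN, the median of the 10 genes was 0.33, 0 of them had groups that did not overlap, and the summed folding genes had a log2 ratio of 0.10 in place of -0.15. Relative to the median gene, 5 of the 10 were above it and 5 below with either scaling. With 1 library left out, Pdia4 ran from -0.16 (without IDPN 2) to 0.00097 (without IDPN 3) and Pdia6 from -0.14 (without IDPN 2) to 0.081 (without IDPN 3), with 0.067 without Control 3. Of the 80 values of single members of the set under the 8 settings, 77 kept their direction and their side of the threshold, as did 56 of 60 with 1 library left out. The settings without independent filtering, without the Cook filter and with the test against 1.5-fold reuse the main estimates. Direction could not change in those settings, and the test against 1.5-fold is stricter than the main test, so part of the 77 was fixed in advance. Leaving out 1 library gave medians of the 10 genes of -0.01 to 0.18 and summed folding ratios of -0.28 to -0.06. It left 1 to 4 genes without overlap (4 without Control 3 and 4 without IDPN 2). With 2 libraries in 1 group, non-overlap is reached more easily. The share of all genes in those fits is not given, so these counts are not read as a result about the 10 genes. Of the 127 ER genes, the 1 called higher became 0 with edgeR, with independent filtering off and in the test against 1.5-fold, 2 with edgeR unfiltered, and 0 to 6 with 1 library left out (6 without Control 3). The 1 called lower became 0 with edgeR, with total-count scaling and in the test against 1.5-fold, and 0 to 2 with 1 library left out (2 without Control 3). The causes of these shifts were not tested, and leaving out a library also lowers the number of samples. The intervals of Ern1, Eif2ak3, Xbp1, Herpud1, Sdf2l1 and Ppib include changes above 1.5-fold, and whether depth limits them was not tested.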

Other observations

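Across the genome, 49 genes had an ERSE or ERSE-II in their RefSeq window, a count made after the data were seen. Of these, 28 were tested and 0 were called by DESeq2, beside 5.74% of all genes tested. With so few genes, that count is not read as a result about them. A higher mean in IDPN was seen in 14 and a lower mean in 14. Their median log2-Fold_Change was -0.01, beside 0.02 for all genes tested. IDPN 2 was the highest library for 12 of the 28, beside 19.8% of all genes tested.

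Of the 117 ER genes outside the 10, IDPN 2 was the highest library for 53 (45.3%) and the lowest for 3 (2.56%), beside 19.8% and 18.2% of all genes tested. By list, it was highest in 14 of 26 genes of ER-associated degradation and in 10 of 18 disulfide isomerases and oxidases, but in 1 of 8 prolyl isomerases and 2 of 11 genes of the calnexin and calreticulin cycle. The share of all counts taken by the 10 genes was 0.259%, 0.266% and 0.351% in Control and 0.370%, 0.371% and 0.295% in IDPN. Control 3 and IDPN 3 were thus between the other libraries of both groups in this share. The 100 most abundant genes took 48.3% to 54.5% of the counts in Control and 44.6% to 48.2% in IDPN.

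Other marker lists gave these values. Macrophage markers had a median log2-Fold_Change of 0.52 with 0 of 12 called, supporting cell markers -0.43 with 2 of 12 downregulated, and melanocyte markers 0.65 with 0 of 6 called. Of 5 tested erythroid markers, 4 were upregulated by DESeq2 and 0 by edgeR (median 0.83), and 1 gene each was upregulated in the lists of stroma, Schwann cells and dark and transitional cells. Among endothelial markers 1 of 8 was downregulated. Of 5 tested plasma cell markers, 0 were called. Their part in the values of the 10 genes was not tested.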
